A study of Oryctolagus cuniculus with 6 samples.

Results

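Solute carriers are membrane proteins that move nutrients, ions, metals and metabolites into and out of cells and organelles. Those of the plasma membrane supply the cell with sugars, amino acids, nucleosides and vitamins, those of the Golgi, lysosome and mitochondrion link these compartments to the cytosol, and many run on the sodium and proton gradients that the ion pumps set up. In smooth muscle of the artery wall they carry lactate, glucose and adenosine, and hold calcium and pH after contraction. In matrix-producing cells they take up amino acids and move nucleotide sugars into the Golgi, both used to build glycoproteins.

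The members were the probes of a rabbit expression array whose gene name begins with SLC and a number, or whose description names a solute carrier family, apart from 2 genes that were set aside. The rule took 435 of 43603 probes, from 193 of the 10582 genes with a symbol on the array. Of these, 244 probes of 114 genes were called well above background by the scanner software in 3 or more of the 6 samples and were tested among 27410 probes in all. The brightest tested probe over all arrays stood for its gene. Of the other 79 genes, 54 had no probe above background on any array. Another 55 genes with an SLC symbol lie outside the rule, since their probes carry neither the name nor the description in the array's own annotation.

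The 6 arrays hold RNA of smooth muscle cells of the basilar artery, the vessel that supplies the brainstem, from female New Zealand White rabbits. In the ligated group (3 arrays) both common carotid arteries were tied, which sends more flow through the basilar artery. In the sham control group (3 arrays) the same arteries were exposed without being tied. Cells were taken on day 5 by digestion of the perfused vessel for 45 min. The labels give no age, no cell sorting step, and no statement on whether each sample is a single rabbit or pooled animals, so the p-values measure the spread between these samples. Levels are log2 signals relative to the 75th percentile of the array, so a level of 0 lies at that percentile, and a change is the ligated minus the sham mean. Every change of a probe is given with the standard error (SE) of a linear model fitted with limma over all tested probes, and adjusted p-values are Benjamini-Hochberg values over those probes.

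Some arrays stood closer to the other group than to their own. Sham replicates 2 and 3 were nearly alike (correlation 0.991 over all tested probes), whereas sham replicate 1 correlated better with ligated replicates 1 and 2 (0.928 and 0.946) than with the other sham arrays (0.896 and 0.897). Ligated replicate 3 correlated as well with sham replicates 2 and 3 (0.939 and 0.933) as with ligated replicates 1 and 2 (0.923 and 0.939). Over the 114 carrier genes the median absolute difference was 0.14 between sham replicates 2 and 3, and it lay between 0.39 and 0.67 for the other 14 pairs of arrays. The sham samples shared 1 slide and the ligated samples a second one, hence an effect of the slide cannot be told apart from that of ligation. All 7 tested smooth muscle markers were above background on all 6 arrays, and 2 of them, SMTN and DES, passed as lower after ligation (summed linear signal of the list 1075 to 1784 on sham and 371 to 862 on ligated arrays, in multiples of the 75th percentile). Of the fibroblast and meningeal markers 4 of 5 passed as higher (120 to 135 against 218 to 265). The erythroid markers summed to 189, 389 and 372 in sham replicates 1 to 3 and to 28.5, 31.4 and 668 in ligated replicates 1 to 3, and the macrophage sum was highest on ligated replicate 3 (32.2, against 8.45 to 19.1 on the other arrays). Of the glial markers none was tested, with GFAP and AQP4 below background. The part of these cell types in the carrier results was not tested. In such samples fewer cells of a type and less RNA per cell cannot be told apart.

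At an adjusted p of 0.05, 15 of the 244 carrier probes passed (6.15%, against 8.35% of all tested probes), 10 higher (background 5.71%) and 5 lower (background 2.65%) after ligation. By gene, 7 of 114 passed (6.14%, against 8.81% of 7842 genes named on the array), 5 higher (background 6.15%) and 2 lower (background 2.67%). The shares of carriers that passed were near or below those of all genes. Higher were the nucleoside carrier SLC29A1, the monocarboxylate family member SLC16A9, the Golgi UDP-galactose carrier SLC35A2, the mitochondrial aspartate and glutamate exchanger SLC25A13 and the vitamin C carrier SLC23A1. SLC25A13 and SLC23A1 were above background on the ligated arrays alone, so they entered the test through the group where they are high. Such a filter favours a difference, and their p-values are given as descriptions. Lower were SLC25A28, which brings iron into mitochondria, and SLC38A9, an arginine sensor of the lysosome. The same split under quantile normalization was 3 higher and 2 lower.

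All 7 calls were lost when the nearly alike sham replicates 2 and 3 were not both counted. When these were averaged into 1 sample, none of the carrier genes passed in the limma fit (20 of 114 were under an unadjusted p of 0.05), and the adjusted p of the 7 ran from 0.0712 to 0.167, with 2.38% of all genes and 2.17% of all probes passing. Without sham replicate 2 and without sham replicate 3 the count was also 0 (25 and 19 under an unadjusted p of 0.05), with 2.17% and 2.01% of all probes passing. It was 1 without ligated replicate 2 (2.74% of all probes), 5 without ligated replicate 1 (4.4%), 5 without sham replicate 1 (8.28%) and 7 without ligated replicate 3 (8.26%), of which 5 were among the 7. Without sham replicate 1 and ligated replicate 3 together, a setting added after the correlations were seen, 20 passed, 6 of them among the 7, while 21.5% of all probes passed. With background correction by normexp no carrier gene passed (none at an unadjusted p of 0.05 either), and 0 of 27410 probes did. The median change of all tested probes was then 0.21, against 0.01 in the fit as reported. Leaving out spots of high local background before normexp gave 3 carrier genes (8.69% of all probes). These are spots whose background was over 5 times the array median. Without control spots they numbered 0, 0 and 19 on sham replicates 1 to 3 and 3, 6 and 13 on ligated replicates 1 to 3. The 2 normexp settings differed only in whether such spots were left out. Keeping dim probes in the test also gave 3 carrier genes (3.5% of 43603 probes passed). Quantile normalization and the deposited value table gave 5 each (7.74% and 7.72%), median centring 7 (8.03%), probes above background in all 6 samples 7 of 91 genes (10%), trended robust variances 8 (10.7%), and array weights 20 (20%).

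**Figure D1:**
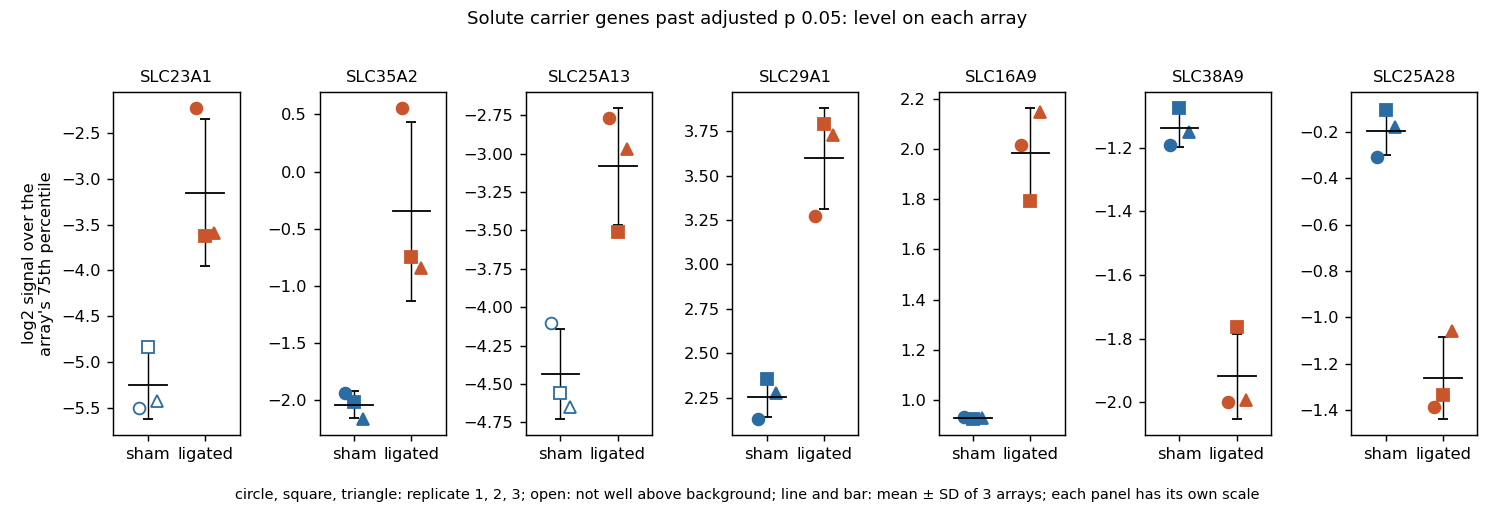
Level of the 7 carrier genes past an adjusted p of 0.05 on each array (y axis: log2 signal over the array's 75th percentile, with its own scale in each panel). Symbols stand for the replicates, open symbols were not well above background, and the line and bar give the mean ± SD of 3 arrays; the sham and ligated arrays of each gene do not overlap.

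SLC29A1 encodes the equilibrative nucleoside transporter ENT1, which takes up adenosine and so shortens its signal at vascular receptors. It read 2.13, 2.36 and 2.28 in the sham samples and 3.27, 3.79 and 3.73 in the ligated ones. The groups did not overlap, and the lowest ligated array lay above the highest sham array by more than the range of the sham group. SLC29A1 rose by 1.34 ± 0.21 (SE, n = 3 per group), a fold of 2.54, at an adjusted p of 0.0164 in limma. SLC29A1 missed the threshold without ligated replicate 2 (adjusted p = 0.0649 in limma) and without sham replicate 2 or 3 (0.0694 and 0.0784). Its 5 probes, each shifted by 1 base at chr12:33614170-33614233 of oryCun2, gave changes of 1.32 to 1.36 and all passed, but they read 1 stretch of the transcript and are not 5 independent readings. The second equilibrative carrier, SLC29A2, read -1.67, -1.59 and -1.48 on sham and -1.25, -2.69 and -2.81 on ligated arrays. Its ligated arrays split to both sides of the sham group (-0.67 ± 0.42, adjusted p = 0.351).

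SLC35A2 loads UDP-galactose into the Golgi for glycan synthesis. The sham samples read -1.94, -2.02 and -2.17, and the ligated ones 0.56, -0.75 and -0.84. All ligated arrays lay above all sham arrays, with replicate 1 highest, and the rise was 1.69 ± 0.39 (3.24-fold, adjusted p = 0.0482 in limma). Without ligated replicate 1 the change was 1.24, with an adjusted p of 0.0334 in limma. The call was lost without any 1 of the sham arrays and without ligated replicate 2, with adjusted p-values from 0.0742 to 0.162. It held in 7 of 19 other settings. The rise rests on 1 probe, with no second probe of the gene on the array.

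SLC16A9 belongs to the monocarboxylate carriers and has been linked to carnitine export. It read 0.93 on each of the 3 sham arrays (SD 0.0041) and 2.02, 1.79 and 2.15 on the ligated arrays. The sham arrays were as good as identical for this probe, and the rise of 1.06 ± 0.18 (2.08-fold, adjusted p = 0.0204 in limma) was well outside the spread of either group. SLC16A9 passed in 11 of 19 other settings. It missed the threshold without ligated replicate 1 or 2 (adjusted p = 0.0557 and 0.0505 in limma) and without sham replicate 2 or 3 (0.101 for each).

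The probes of these genes and of SLC25A13 are shown because each call rests on that 1 stretch of sequence. The files place the 60 bases of each on longer spans of oryCun2, so that each probe crosses at least 1 gap in the genome: SLC16A9 at chr18:26494976-26495439 (plus strand, a span of 464 bases), SLC35A2 at chrX:33558976-33560355 (minus strand, 1380 bases) and SLC25A13 at chr10:33013341-33014856 (plus strand, 1516 bases). Letters are 5′ to 3′, all in lower case because no other probe of these genes shares a run with them.
SLC16A9: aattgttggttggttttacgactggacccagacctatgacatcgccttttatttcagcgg
SLC35A2: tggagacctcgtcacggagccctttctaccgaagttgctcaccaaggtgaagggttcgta
SLC25A13: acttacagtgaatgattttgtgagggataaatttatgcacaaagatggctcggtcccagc

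SLC25A13, also called citrin, exchanges aspartate for glutamate across the inner mitochondrial membrane and feeds the malate-aspartate shuttle. Its probe was well above background on none of the 3 sham arrays (-4.10, -4.56 and -4.65) and on all 3 ligated arrays (-2.77, -3.51 and -2.97). The ligated signal was at least 2.24-fold higher than the lowest signal called above background on the sham arrays, or than the sham signal itself where that was higher, and the adjusted p of the fit was 0.0325, which rests on sham readings that were not above background. Leaving out single arrays moved this bound between 1.99 and 2.59. SLC25A12, the paralogue with the same activity, read 2.32, 1.50 and 1.55 on sham and 1.52, 1.49 and 1.21 on ligated arrays and did not pass (-0.38 ± 0.27, adjusted p = 0.401), and its second probe gave 0.15.

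SLC23A1, the sodium-dependent vitamin C carrier SVCT1, was likewise above background on the 3 ligated arrays alone. It read -5.50, -4.83 and -5.43 on sham arrays, none above background, and -2.23, -3.63 and -3.60 on ligated arrays. This gives a level at least 2.13-fold higher after ligation (adjusted p = 0.0342 in limma, again over sham readings that were not above background), and at least 1.55-fold without ligated replicate 1, the highest array. The array has 5 probes of the gene, each a shift of 1 base from the next. The tested probe, at chr4:11508557-11508616 (minus strand), and its nearest neighbour, which was above background on 1 ligated array only, are set out below, with capitals for runs of at least 15 bases that another probe of the gene also holds.
SLC23A1 tested: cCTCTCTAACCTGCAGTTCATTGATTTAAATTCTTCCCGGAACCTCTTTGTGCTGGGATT
SLC23A1 not tested: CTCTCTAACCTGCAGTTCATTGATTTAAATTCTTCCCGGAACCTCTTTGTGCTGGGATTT

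The neighbour shares 59 of 60 bases and read -6.14, -4.21 and -5.53 on sham and -3.45, -4.45 and -4.93 on ligated arrays, where the groups overlap. The other 3 probes of SLC23A1 were above background on 0, 0 and 1 of the ligated arrays and on none of the sham arrays. All 4 untested probes had a higher mean after ligation, by 0.94 to 1.59, but their levels lie in the range where the array gives a bound and no level. The call for this gene therefore rests on the brightest of 5 nearly identical probes.

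SLC25A28 is mitoferrin-2, which imports iron into mitochondria for haem and iron-sulphur cluster synthesis. It read -0.31, -0.11 and -0.18 on sham arrays and -1.39, -1.34 and -1.06 on ligated arrays. Every ligated array lay below every sham array, and SLC25A28 fell by 1.06 on the log2 scale (SE 0.19, a fold of 2.09, adjusted p = 0.0221 in limma). SLC25A28 missed the threshold without ligated replicate 1 or 2 (adjusted p = 0.0603 and 0.0789 in limma) and without sham replicate 2 or 3 (0.109 and 0.105). Of its 5 probes 4 passed, and the fifth had a change of -0.98 with an adjusted p of 0.0718. The 2 probes printed here, at chr18:47588210-47588269 and chr18:47588211-47588270 (minus strand), differ by a shift of 1 base and gave -1.06 and -1.19. Capitals mark what they share with other probes of the gene.
SLC25A28 brightest: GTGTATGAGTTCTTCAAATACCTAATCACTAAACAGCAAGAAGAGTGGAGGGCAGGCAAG
SLC25A28 neighbour: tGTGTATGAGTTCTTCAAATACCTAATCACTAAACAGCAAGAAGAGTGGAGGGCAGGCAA

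SLC38A9 sits on the lysosome and signals arginine to mTORC1. It read -1.19, -1.08 and -1.15 on sham and -2.00, -1.76 and -1.99 on ligated arrays. The 2 groups were tight and apart, and the gene fell by 0.78 (SE 0.17, 1.72-fold, adjusted p = 0.0445 in limma). The call was lost when any 1 of the 6 arrays was left out, with adjusted p-values from 0.0679 to 0.176. The array has a second probe that abuts the first on the minus strand, at chr11:71525859-71525918 beside chr11:71525799-71525858. That probe read -1.34, -1.37 and -1.61 on sham and -1.78, -1.76 and -1.57 on ligated arrays, which overlap (-0.26 ± 0.18, adjusted p = 0.392). The pair shares no run longer than 6 bases, so here the 2 readings come from different letters of the same transcript.
SLC38A9 passing: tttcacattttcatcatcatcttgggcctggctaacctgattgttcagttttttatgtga
SLC38A9 not passing: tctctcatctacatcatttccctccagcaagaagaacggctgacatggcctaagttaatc

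Across all tested probes of a gene the readings mostly ran together. Of the 49 genes with more than 1 tested probe, 39 had all their changes on the same side of 0. Probes that read another stretch of the gene could still differ in size. SLC16A12, a creatine carrier of the monocarboxylate family, had 5 probes within chr18:37372390-37372571 with changes of 0.53 to 0.84, none of which passed. Its sixth probe, at chr18:37378966-37379025 on the same minus strand, passed (adjusted p = 0.0425 in limma). It was above background on the 3 ligated arrays and on no sham array, so it too was kept through the ligated group alone and its p is no support for a difference. Its level was at least 1.49-fold higher, and since the brightest probe stands for a gene, SLC16A12 is not among the 7. The scaffold protein NHERF1 had 5 overlapping probes between -0.48 and -0.25 and a sixth at 0.77. SLC35E3, of the nucleotide sugar carrier family, ran from -0.27 to 0.61 over 5 probes of which neighbours share runs of 29 or 30 bases. No probe of these 2 genes passed.

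**Figure D2:**
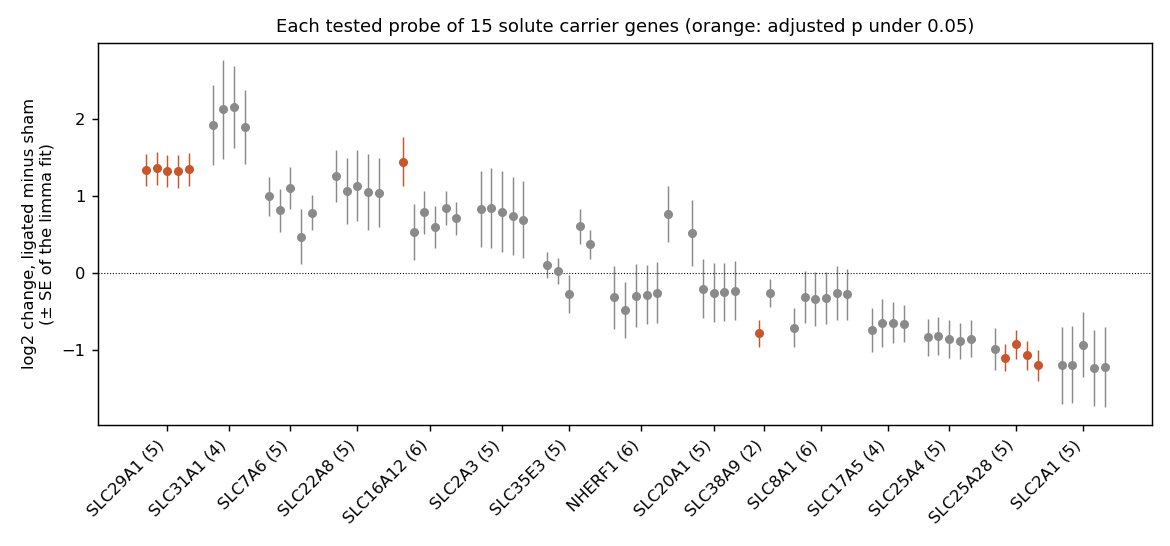
Log2 change, ligated minus sham, of every tested probe of 15 carrier genes, with the SE of the limma fit and the number of probes in brackets; orange marks an adjusted p under 0.05. The 5 probes of SLC29A1 lie between 1.32 and 1.36, while the 2 probes of SLC38A9 and the 6 of SLC16A12 differ from one another.

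Over the 114 genes the median change was 0.21, and 70 of them (61.4%) were higher after ligation, against a median of 0.01 and 50.6% for all named genes tested. For median centring, the median of all probes on each array was subtracted, with untested dim probes included. The median over the tested probes then went from 0.01 to -0.19. That of the carriers went to 0.01, with 58 of 114 above 0. This scaling moves all changes alike and so leaves the distance between carriers and other probes as it was. The groups did not overlap for 33 carrier genes (28.9%, against 35.3% of all genes), with ligated above in 24 (21.1%, background 17.7%) and below in 9 (7.89%, background 17.6%). An unadjusted p under 0.05 was found for 27 carriers (23.7%, background 27.6%), 18 higher and 9 lower. Of the 114 genes, 14 were above background on fewer sham than ligated arrays and 4 on fewer ligated than sham arrays. The same numbers over all genes were not computed. A gene kept through 1 group alone was taken by a filter that favours a difference, and the part of the filter in the carrier median was not tested. With probes above background on all 6 arrays, 53 of 91 carrier genes were above 0, with a median of 0.138. The median of all probes in that setting was -0.0151. On the 6 arrays the median deviation of the carriers from their own means was -0.08, -0.03 and -0.18 for sham and 0.17, 0.07 and 0.09 for ligated samples, so the sham and ligated arrays did not overlap in this description. These levels depend on the scaling of each array. The same values over all tested genes were not computed, so the separation cannot be called a trait of carriers.

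**Figure D3:**
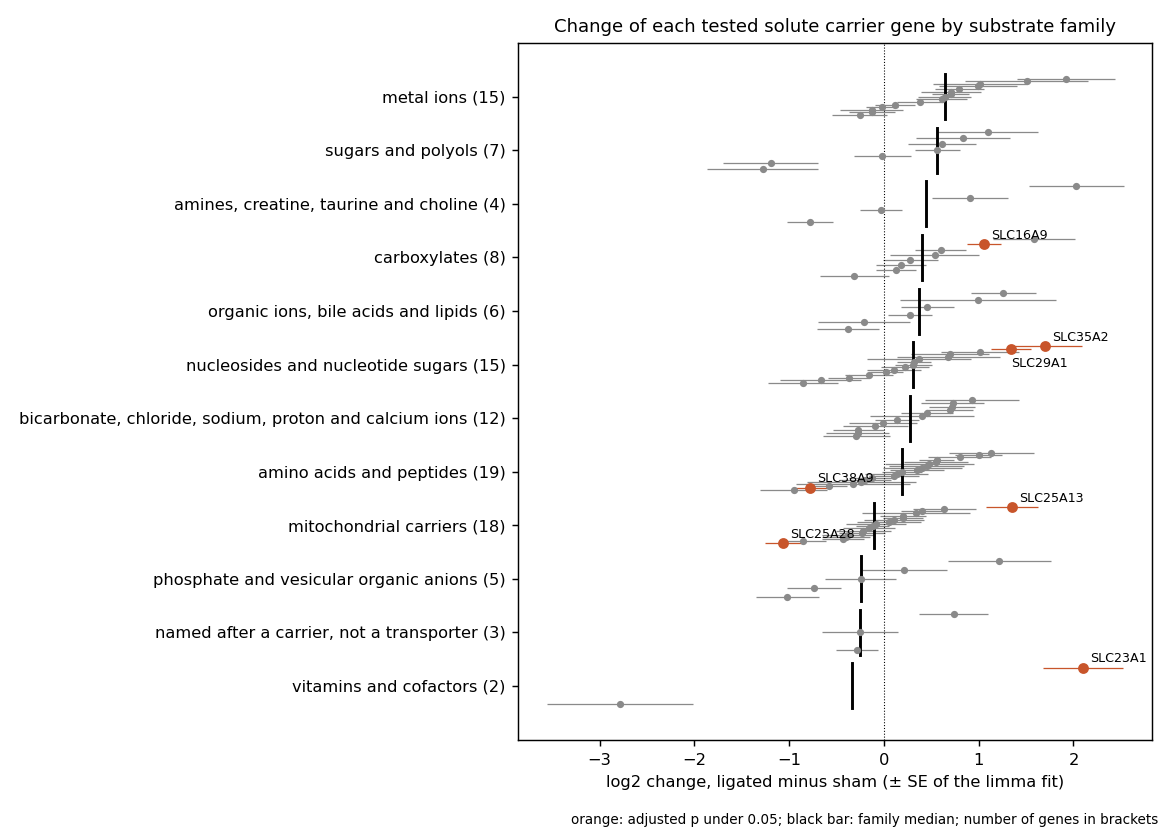
Log2 change (ligated minus sham, ± SE of the limma fit) of each of the 114 tested carrier genes, sorted by substrate family with the number of genes in brackets; black bars are family medians and orange marks an adjusted p under 0.05. Metal ion carriers have the highest median of the families as plotted (0.64, not so under normexp), and the passing genes lie in 5 families.

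Metal ion carriers had the highest family median in the fit as reported, 0.64 over the 15 of 19 genes that were tested, and 11 of the 15 were higher after ligation. None passed in limma (4 were under an unadjusted p of 0.05, all of them higher). The groups did not overlap for 6 of them, each with ligated above. Over all genes 27.6% were under an unadjusted p of 0.05, and 17.7% had all ligated above all sham arrays. The family median stayed between 0.33 and 0.74 under 20 alternative settings, but its rank did not hold: under normexp it was 0.38, below organic ions (0.55), sugars (0.52), ions (0.50), nucleosides (0.43) and vitamins (0.43). Sugar carriers had the highest median with probes above background in all samples, without sham replicate 1, and without sham replicate 1 and ligated replicate 3. SLC31A1, the copper importer CTR1, read -3.51, -5.12 and -4.38 on sham arrays, 2 of them above background, and -1.57, -2.69 and -2.99 on ligated arrays. All its ligated arrays were the higher ones (1.92 ± 0.52, adjusted p = 0.0713), and its 4 tested probes, which overlap by 59 bases, gave 1.89 to 2.15. SLC31A1 passed without sham replicate 1.

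SLC39A14, a zinc, iron and manganese importer, read -3.52, -4.16 and -3.74 on sham and -0.73, -2.96 and -3.20 on ligated arrays. Its change of 1.51 ± 0.65 (adjusted p = 0.194) owed most to ligated replicate 1. The zinc carrier of the early secretory pathway SLC30A5 read 0.15, -0.37 and -0.27 on sham and 0.95, 0.68 and 0.26 on ligated arrays. These ranges do not meet, but the change of 0.80 ± 0.26 had an adjusted p of 0.107. The magnesium carrier SLC41A2 had a change of 0.70 ± 0.20 (adjusted p = 0.0778), also without overlap. Among the members of the family near 0 was SLC11A2, the iron importer DMT1, at -0.13 ± 0.25, whose sign turned under 5 of 19 settings. SLC39A10 had the lowest change (-0.26, adjusted p = 0.590).

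Beside the nucleoside carriers stand the Golgi carriers of nucleotide sugars. Of the 15 tested genes grouped here by carrier family, not by the substrate of each member, 2 passed, SLC29A1 and SLC35A2 (8.81% of all genes passed). After ligation 11 were higher (50.6% of all genes were), with a median of 0.31 that fell to 0.10 under quantile normalization. SLC35F5 read -0.67, -0.95 and -0.83 on sham and 1.11, 0.05 and -0.55 on ligated arrays. Its groups did not overlap, yet ligated replicate 3 lay close to the sham arrays (1.01 ± 0.42, adjusted p = 0.176). SLC35C2, SLC35D2 and SLC35A3 had changes of 0.70, 0.68 and 0.37 with overlapping groups. SLC35F3 was above background on all 3 sham arrays and on no ligated array, so it was kept through the sham group alone, a filter that favours a difference. Its bound, 1.39-fold lower after ligation, is given as a description. The signals of the groups overlap and the gene did not pass (adjusted p = 0.194 in limma). Its change turned to 0.54 under normexp and to 0.031 with spots of high background left out.

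The group of carboxylate carriers, among them those of lactate, pyruvate and ketone bodies, had 8 tested genes. Not every member carries these, since SLC16A9 has been linked to carnitine and SLC16A12 to creatine. SLC16A9 passed (8.81% of all genes did), and 7 of the 8 were higher (50.6% of all genes were), with a median of 0.41. SLC16A6 read -4.67, -3.46 and -4.16 on sham arrays, 2 of them above background, and -2.08, -3.26 and -2.19 on ligated arrays. The groups were apart, with sham replicate 2 close to ligated replicate 2 (1.58 ± 0.43, adjusted p = 0.0729). The lactate carrier MCT1, SLC16A1, had a tested probe that read -2.58, -2.21 and -2.53 on sham and -2.19, -2.58 and -2.16 on ligated arrays. Both groups covered the same range (0.13 ± 0.21, adjusted p = 0.721).

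Among sugar and polyol carriers none of the 7 tested genes passed in limma. None was under an unadjusted p of 0.05 (27.6% of all genes were), although their median was 0.56. The 2 main glucose carriers lay on opposite sides of 0. SLC2A1, the basal glucose carrier GLUT1, read 4.62, 3.51 and 3.44 on sham and 2.63, 1.85 and 3.51 on ligated arrays. Ligated replicates 1 and 2 were lower than all sham arrays, but ligated replicate 3 fell among them (-1.19 ± 0.50, adjusted p = 0.186). Its 5 overlapping probes gave -1.23 to -0.93. SLC2A3, the high-affinity carrier GLUT3, read -0.06, -0.40 and -0.31 on sham and 1.61, 0.56 and -0.43 on ligated arrays. Here too ligated replicate 3 sat with the sham arrays (0.84 ± 0.49, adjusted p = 0.320). Both genes passed in the setting without sham replicate 1 and ligated replicate 3, whose erythroid sums were 189 and 668. The part of red cells in the reading of these carriers was not tested. The intracellular glucose carrier SLC2A8 had 0.56 (adjusted p = 0.187). SLC5A3, which imports myo-inositol under osmotic stress, read -1.86, -2.40 and -2.06 on sham and -2.22, -3.29 and -4.65 on ligated arrays, with 2 ligated arrays above background (-1.28 ± 0.59, adjusted p = 0.216).

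Amino acid and peptide carriers were the largest family, with 19 tested genes of 35 and a median of 0.19. SLC38A9 was the only one that passed (8.81% of all genes did). The cationic amino acid carriers SLC7A1 and SLC7A2, which bring arginine into the cell, stood on opposite sides of 0. SLC7A1 read -3.60, -4.33 and -4.46 on sham and -2.48, -2.58 and -3.93 on ligated arrays, with 2 arrays of each group above background and overlap through replicate 3 (1.13 ± 0.45, adjusted p = 0.165). SLC7A2 read -0.36, -0.14 and -0.14 on sham and -0.66, -1.01 and -0.70 on ligated arrays, lower on each ligated array (-0.58 ± 0.19, adjusted p = 0.115).

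SLC7A5, the leucine carrier LAT1 that pairs with the heavy chain SLC3A2, read 1.57, 1.98 and 2.19 on sham and 0.25, 1.44 and 1.20 on ligated arrays. The ligated arrays were all lower, sham replicate 1 and ligated replicate 2 nearly meeting (-0.95 ± 0.36, adjusted p = 0.147). SLC3A2 itself was at 0.11 ± 0.26 with full overlap. SLC7A6, a second partner of that heavy chain, was higher on every ligated array (1.00 ± 0.25, adjusted p = 0.0614), and its 5 tested probes gave 0.47 to 1.10. The glutamine carriers SLC38A5 and SLC38A2 had changes of 0.56 ± 0.18 (adjusted p = 0.109) and 0.45 ± 0.40 (adjusted p = 0.491), the first without overlap. SLC1A5, the glutamine carrier ASCT2, read 1.88, 4.04 and 3.97 on sham and 2.52, 3.10 and 3.31 on ligated arrays. Its spread within the sham group (SD 1.22) was larger than the change of -0.32, and its second probe, which shares no run longer than 5 bases with the first, gave -0.0010.

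Of the 18 tested genes grouped as mitochondrial carriers SLC25A13 passed as higher (background 6.15%) and SLC25A28 as lower (background 2.67%). The grouping is by carrier family and not by the place of each member in the cell. The family median was -0.10. Under normexp it was 0.13, where the median of all tested probes was 0.21, against 0.01 as reported. The ADP/ATP exchanger SLC25A4 read 7.03, 6.77 and 7.03 on sham and 6.17, 6.41 and 5.69 on ligated arrays. Each ligated array was lower (-0.85 ± 0.24, adjusted p = 0.0793), as was so for all 5 probes (-0.88 to -0.82). The phosphate carrier SLC25A3 read 7.12, 6.88 and 6.96 on sham and 6.44, 6.90 and 6.33 on ligated arrays. Here ligated replicate 2 fell among the sham arrays (-0.43 ± 0.22, adjusted p = 0.259), and the sign turned to 0.02 under quantile normalization. SLC25A24, SLC25A16 and SLC25A17 lay between -0.12 and 0.20.

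Carriers of bicarbonate, chloride, sodium, protons and calcium held 12 tested genes of 26, with a median of 0.27. None of them passed in limma (2 under an unadjusted p of 0.05, both higher, background 27.6%). The sodium-proton exchanger SLC9A5 was at 0.69 (adjusted p = 0.138). SLC8A1, the sodium-calcium exchanger NCX1, read 4.03, 3.17 and 3.25 on sham and 3.48, 3.44 and 2.71 on ligated arrays, with overlap (-0.28 ± 0.33, adjusted p = 0.616). A probe of SLC8A1 at another position of the gene gave -0.71 ± 0.25 without overlap and did not pass (adjusted p = 0.136). The potassium-chloride cotransporter SLC12A7 read 4.25 to 5.53 over all arrays with a change of -0.01.

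The phosphate and vesicular carriers had a median of -0.24 over 5 tested genes. None passed in limma (2 under an unadjusted p of 0.05, both lower, background 27.6%). SLC20A2, a sodium-phosphate cotransporter, read -1.22, -1.79 and -1.73 on sham and -2.07, -2.51 and -3.21 on ligated arrays, lower on each (-1.02 ± 0.34, adjusted p = 0.112). Its relative SLC20A1 was at -0.24 ± 0.37 with overlap. SLC17A5, which exports sialic acid from lysosomes, had -0.74 ± 0.28 (adjusted p = 0.157), and SLC17A9, which loads ATP into vesicles, had 1.22 ± 0.54 (adjusted p = 0.207), both with overlap. Among carriers of organic ions and lipids, none of 6 passed in limma (1 under an unadjusted p of 0.05, background 27.6%). The organic anion carrier SLC22A8 read -1.30, -1.77 and -1.73 on sham and -1.04, 0.10 and -0.08 on ligated arrays, sham replicate 1 and ligated replicate 1 being close (1.26 ± 0.34, adjusted p = 0.0705). It passed under 4 of 19 settings. The fatty acid importer SLC27A4 had 0.46 with overlap. The organic cation carrier family member SLC22A4 had 0.99 by the only 1 of its 5 probes that was tested, and 0.085 without sham replicate 3.

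The second vitamin carrier tested, SLC19A3, which takes up thiamine, read -1.39, -2.48 and -2.29 on sham arrays, all above background, and -4.92, -6.37 and -3.22 on ligated arrays, of which 1 was above background. The groups were apart but the ligated arrays spread widely (SD 1.57), and the fitted change of -2.78 ± 0.77, which rests partly on readings that were not above background, did not pass (adjusted p = 0.0752). Under normexp it was 0.081. Of its other probes, which lie beside this one, the tested one gave -0.84 with overlap and the second was above background on 1 sham array only. Amine carriers had 4 tested genes and no call in limma (2 under an unadjusted p of 0.05, background 27.6%). SLC6A12, a betaine carrier, read -4.68, -3.64 and -5.33 on sham arrays, 1 of them above background, and -2.09, -3.23 and -2.24 on ligated arrays (2.03 ± 0.50, adjusted p = 0.0573). The choline-carrier family member SLC44A2 was lower on each ligated array (-0.78 ± 0.24, adjusted p = 0.0975), the noradrenaline carrier SLC6A2 had 0.91 ± 0.40 with overlap, and the creatine carrier SLC6A8 had -0.03 ± 0.22. The taurine carrier SLC6A6 was not tested. The proteins NHERF2 (0.74), NHERF1 (-0.25) and SLC7A6OS (-0.29), which the rule takes by name although they carry nothing, did not pass.

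**Figure D4:**
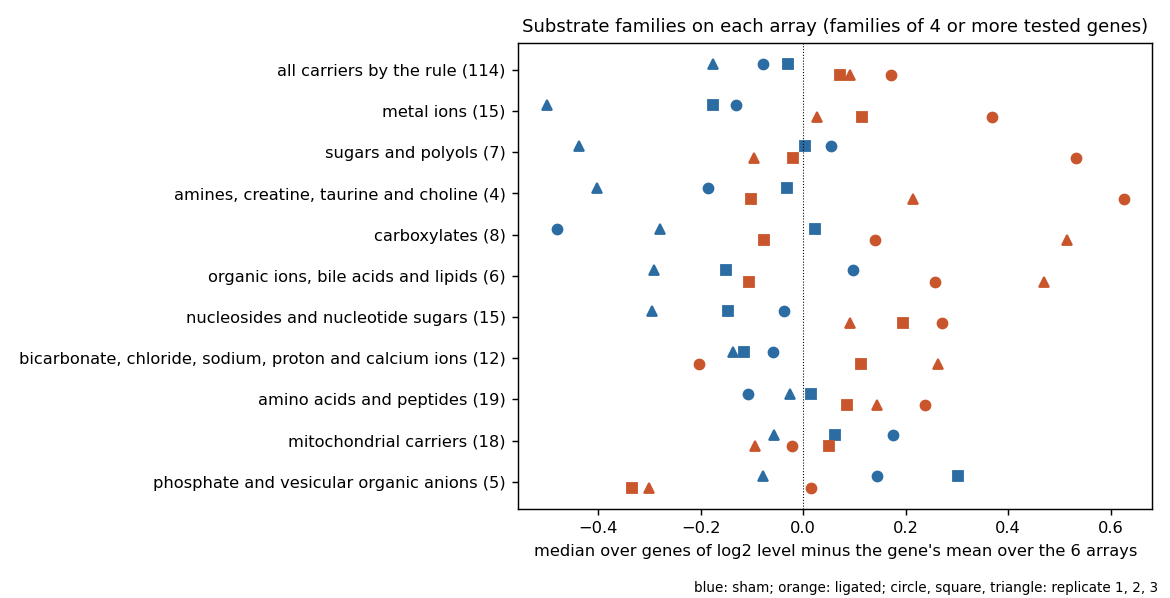
For each family of 4 or more tested genes, the median over its genes of the log2 level minus the gene's mean over the 6 arrays (x axis), 1 symbol per array; blue is sham, orange is ligated, and circle, square and triangle are replicates 1, 2 and 3. The 3 ligated arrays lie above the 3 sham arrays for metal ions, for nucleosides and nucleotide sugars, for amino acids and for all 114 genes, and the groups overlap in the other families.

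A list of 52 ion pumps, partner proteins and kinases that power, anchor or regulate carriers gave 32 tested genes, of which 2 passed as higher (background 6.15%) and none as lower (background 2.67%), with a median change of 0.28. Embigin (EMB), which brings monocarboxylate carriers to the cell surface, read -3.77, -3.24 and -3.05 on sham arrays, 2 of them above background, and -1.43, -1.38 and -0.60 on ligated arrays. The groups were far apart (2.22 ± 0.31, adjusted p = 0.0117 in limma), and EMB also passed with sham replicates 2 and 3 averaged (adjusted p = 0.0456). It missed the threshold without sham replicate 2 (adjusted p = 0.0513) and under normexp, where its change was 0.81 (adjusted p = 0.789), and it was 0.91 with spots of high background left out (adjusted p = 0.0295). Ceruloplasmin (CP), the ferroxidase that works with iron export, read 3.39, 2.18 and 2.35 on sham and 5.39, 5.29 and 4.67 on ligated arrays. It rose by 2.48 ± 0.38, or 5.58-fold (adjusted p = 0.0152 in limma), and missed the threshold with sham replicates 2 and 3 averaged (adjusted p = 0.0638). CP also missed it without sham replicate 2 or 3 and without ligated replicate 1 or 2 (adjusted p from 0.0565 to 0.0703). It did so too with scan day as a block and under normexp (adjusted p = 0.789), and passed in 12 of 19 other settings. The kinase SGK1 (1.52 ± 0.37, adjusted p = 0.0558) and the exchanger cofactor CHP1 (1.42 ± 0.35, adjusted p = 0.0557) were higher on every ligated array without passing. The calcium pump ATP2A2 was at -0.45 ± 0.21 (adjusted p = 0.220).

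**Figure D5:**
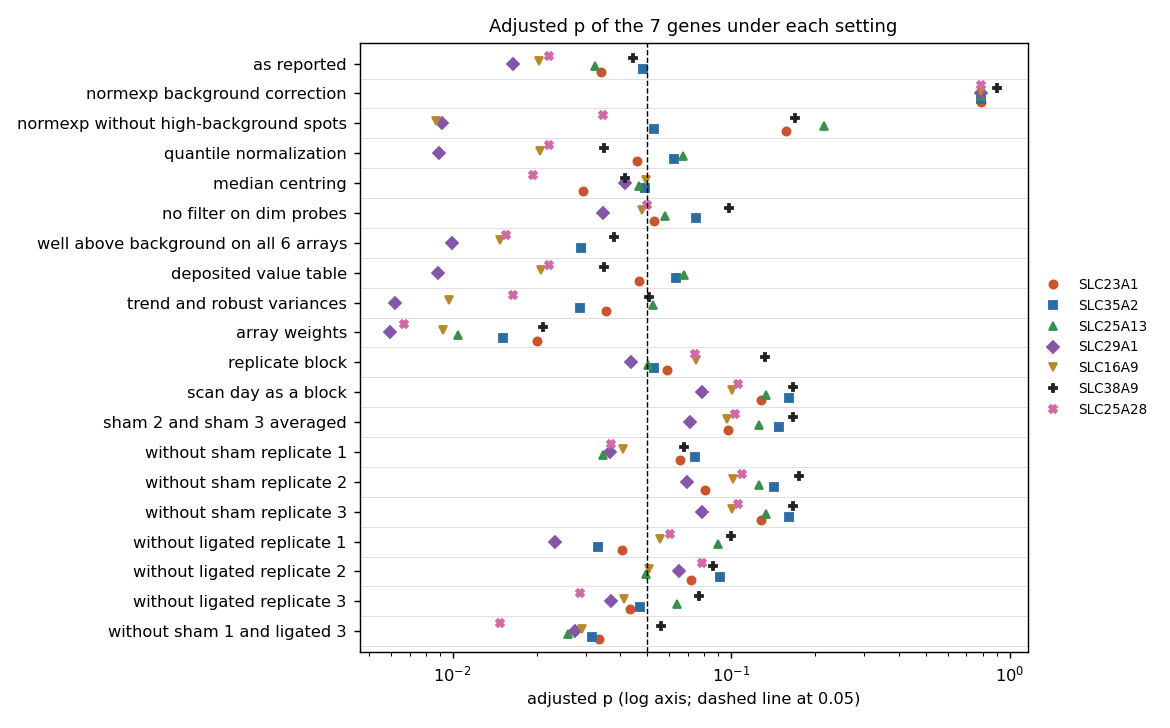
Adjusted p (log axis, dashed line at 0.05) of the 7 carrier genes as reported and under 19 other settings, 1 symbol per gene. SLC29A1 passes under 13 of the 19 settings, SLC38A9 under 5, and every gene lies to the right of the line when sham replicates 2 and 3 are averaged or 1 of them is left out.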

How the data were processed

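The deposited spot signal is, per the file headers, an intensity that Agilent Feature Extraction (10.7 in the submitters' processing notes) corrected for background and trends within the array, with surrogates for low values. Raw spot and background intensity was used for normexp only. Background and outlier marks of each spot are other values, written as 0 or 1 by that software per the file headers. The authors' deposited log2 table has array medians of 5.05, was used as an alternative, and no source used here says how it was made. Outlier spots were dropped, repeated spots averaged, and the 75th percentile of each array subtracted. limma 3.58.1 in R 4.3.3 compared 3 with 3 arrays (two-sided, no covariates, Benjamini-Hochberg over 27410 probes), checked on simulated data. On the arrays 58.7% to 63.7% of probes were above background, no spot was saturated, and the number of arrays limits the precision. Names came from the files and from RefSeq symbols of assembly mOryCun1.1, which renamed 16 member probes. Of the 114 genes, 22 are described as "like" a carrier. Coordinates are those of the files (oryCun2).

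Members, lists and tests were chosen with earlier results of these data known. Genes were named by rule: the largest passing changes, up to 3 per family by p, up to 5 above background in 1 group only, 29 fixed carriers (19 tested, 9 with no member probe) and up to 4 partners. SLC29A2, SLC25A12, SLC35E3, SLC39A10, SLC12A7, SLC35C2, SLC35D2, SLC35A3, SLC25A24, SLC25A16, SLC25A17 and ATP2A2 were added after their values were seen. Some genes that the rule names are not reported here. At the edge of the filter, 9 member probes above background on 3 arrays had a median level of -4.01, and 17 on 2 arrays one of -4.40.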

Additional observations from a re-analysis of the deposited data

How the results depend on the processing

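Of 18 or 19 other settings for each named gene, the 7 calls held in 5 (SLC25A13, SLC38A9) to 13 (SLC29A1). Over the named genes and settings 763 comparisons kept sign and side of the threshold, 70 lost it, 33 gained it and 34 changed sign, of the 7 called genes only SLC38A9 under normexp. Under normexp no carrier probe or gene and no partner passed (0 in each family); the carrier median was 0.34, with 0.13 for mitochondrial carriers, 0.55 for organic ions and 0.43 for vitamins, and signs turned for SLC11A2 (0.38), SLC19A3 (0.081), SLC20A2 (0.074), SLC35F3 (0.54), SLC38A9 (0.11) and SLC5A3 (0.31). Without spots of high background it gave 9 probes (6 higher, 3 lower) and 3 genes (2 higher, 1 lower; 1 each for mitochondrial and nucleoside carriers, 0 for amino acids and vitamins), medians of 0.14 for nucleosides, 0.14 for organic ions and 0.23 for sugars, and turned signs for SLC11A2 (0.043) and SLC35F3 (0.031). Quantile normalization and the value table each gave 3 genes higher (1 mitochondrial, 1 nucleoside), medians of 0.10 and 0.14 for nucleosides and organic ions, -0.051 for SLC16A1 in both, and 0.019 and 0.021 for SLC25A3. Median centring gave medians of 0.010 for all carriers, 0.21 for carboxylates, -0.30 for mitochondrial carriers, 0.11 for nucleosides and 0.17 for organic ions, with SLC16A1 at -0.070 and SLC3A2 at -0.093. No filter gave 9 probes (6 higher, 3 lower) and 3 genes (2 higher, 1 lower), none for amino acids or vitamins. Probes above background in all samples gave 2 amino acid, 1 mitochondrial and 1 organic ion gene, and medians of -0.032 for amines and -0.050 for ions. Trended variances gave 8 probes lower, 1 amine, 1 organic ion and 0 amino acid genes, and 5 partners. Array weights gave 49 probes (35 higher, 14 lower), 20 genes (15 higher, 5 lower; 4 amino acid, 4 metal, 2 phosphate, 2 vitamin, 1 ion, 1 organic ion, 1 sugar) and 12 partners, with SLC20A1 at 0.031, SLC6A8 at 0.11 and SLC8A1 at 0.012. Deviations of same-numbered samples from their group means correlated at 0.43, -0.57 and 0.58 for replicates 1, 2 and 3. The signs differ, so these values cannot decide whether the numbers pair the samples. With the replicate block 9 carrier probes and 2 genes (SLC29A1 and SLC31A1) passed, none lower, while 4.72% of all probes passed. With scan day as a block, which sets sham replicate 3 aside, no carrier and 1 partner passed; medians were 0.10 for nucleosides, 0.21 for organic ions and 0.28 for sugars, SLC11A2 was at 0.022 and SLC1A5 at 0.013. With sham replicates 2 and 3 averaged no carrier and 1 partner passed, SLC1A5 was at 0.032 and SLC3A2 at -0.0072. Without sham replicate 1 and ligated replicate 3, 51 probes (30 higher, 21 lower), 20 genes (14 higher, 6 lower; 4 nucleoside, 3 amino acid, 3 metal, 2 each phosphate, sugar and vitamin, 1 scaffold) and 12 partners passed, medians were 0.15 for carboxylates and 0.52 for organic ions, and signs turned for SLC16A1 (-0.017), SLC20A1 (0.23), SLC6A8 (0.24) and SLC8A1 (0.25). The mean of all probes of a gene left 1 gene lower, 0 amino acid and 1 nucleoside gene. Leaving out 1 sample gave 0 to 17 probes, 0 to 11 higher and 0 to 6 lower, 0 to 7 genes, 0 to 5 higher and 0 to 2 lower, 0 to 3 nucleoside, 0 to 2 mitochondrial and vitamin, 0 to 1 amino acid, carboxylate, metal and organic ion genes, and 0 to 4 partners. Medians then ran from 0.08 to 0.34 (amino acids), -0.025 to 0.40 (ions), 0.19 to 0.50 (carboxylates), 0.10 to 0.38 (nucleosides), 0.21 to 0.51 (organic ions), 0.28 to 0.77 (sugars), -0.63 to 0.16 (vitamins) and 0.24 to 0.60 (amines), and SLC11A2 from -0.23 to 0.056, SLC1A5 from -1.03 to 0.050, SLC20A1 from -0.44 to 0.14, SLC3A2 from -0.055 to 0.33 and SLC6A8 from -0.13 to 0.12. Under normexp the median change of all tested probes was 0.21, against 0.01 as reported. The medians and turned signs of that setting therefore stand beside a shift of all probes. With spots of high background left out, the median of all tested probes was 0.05. The cause of the changes between settings was not tested. Dim probes have only a bound, and 3 samples a group limit the precision.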
